A study of Mus musculus with 6 samples.

Results

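The genes of major histocompatibility complex (MHC) class II antigen presentation were examined in the skeletal muscle of TFEB KO and WT mice. TFEB (gene Tfeb, Tcfeb in older nomenclature) is a transcription factor that drives genes of lysosomes and autophagy. The list has 7 members, H2-Aa, H2-Ab1, H2-Eb1, H2-DMa, H2-DMb1, Cd74 and Ciita. On the array 12393 genes had a probe set of their own, a probe set being a group of probes that read the same transcript. Members were found by symbol in the annotation of the array, keeping probe sets that name a single gene. Of the 7 members, 6 were read this way, by 10 probe sets. H2-DMb1 had no probe set of its own, since the 2 probe sets that name it also name H2-DMb2.

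Total RNA of muscle from 3 TFEB KO mice and 3 WT mice, all C57BL/6 and aged 1 month, was hybridized to Affymetrix arrays, 1 array per mouse. The TFEB KO mice were muscle-specific conditional knockouts, made by crossing mice with a floxed Tcfeb gene to MLC1f-Cre transgenic mice, whose Cre is driven by the promoter of a myosin light chain of muscle fibers. Cells of the muscle that do not use that promoter, blood-derived cells included, therefore keep the gene unless the Cre acts in them too. The sources used here do not give the muscle that was sampled, the sex of the mice, or whether WT mice carried the floxed allele or the Cre.

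MHC class II molecules are pairs of an alpha and a beta chain that display peptides from endocytosed proteins to CD4+ T cells. They are made mainly by dendritic cells, macrophages and B cells, and the genes of the chains and of their chaperones share a promoter layout that is switched on by the coactivator CIITA. In skeletal muscle, class II is found chiefly on the immune cells between the fibers. Since whole tissue was measured, more immune cells and more class II RNA per cell cannot be told apart in these values.

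H2-Aa, H2-Eb1 and H2-DMb1 show that shared layout in RefSeq sequence (mouse build GRCm38.p6), and their promoters are given here because they hold a pair of boxes that the remaining promoters examined here lack. Each runs from 250 bases before to 50 bases after the start of the gene, 5′ to 3′ on the strand of the gene. Capitals mark the core of the X box (GNAACT), which is bound by the RFX complex, and the Y box (TGATTGG), which is bound by NF-Y. The H2-Aa promoter lies at chr17:34287774-34288073 on the minus strand, that of H2-Eb1 at chr17:34305617-34305916 on the plus strand, and that of H2-DMb1 at chr17:34152941-34153240 on the plus strand.
H2-Aa: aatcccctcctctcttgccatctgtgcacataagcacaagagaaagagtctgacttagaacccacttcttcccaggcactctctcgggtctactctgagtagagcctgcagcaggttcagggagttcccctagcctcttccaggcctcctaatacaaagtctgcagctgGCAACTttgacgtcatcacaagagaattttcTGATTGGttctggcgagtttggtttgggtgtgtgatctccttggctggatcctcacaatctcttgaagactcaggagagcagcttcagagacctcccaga
H2-Eb1: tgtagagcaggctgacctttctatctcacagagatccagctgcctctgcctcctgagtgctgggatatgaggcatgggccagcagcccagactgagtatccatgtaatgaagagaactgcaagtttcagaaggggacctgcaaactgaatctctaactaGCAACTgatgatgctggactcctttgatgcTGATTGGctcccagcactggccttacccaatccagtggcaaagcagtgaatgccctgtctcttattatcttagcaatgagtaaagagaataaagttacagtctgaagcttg
H2-DMb1: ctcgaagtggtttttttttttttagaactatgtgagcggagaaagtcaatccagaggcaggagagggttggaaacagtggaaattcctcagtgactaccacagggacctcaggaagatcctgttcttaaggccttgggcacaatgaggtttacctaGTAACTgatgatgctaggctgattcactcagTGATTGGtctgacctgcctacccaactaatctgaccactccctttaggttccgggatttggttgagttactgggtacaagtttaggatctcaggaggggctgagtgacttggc

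With positions counted from the start of the gene, the X box core began at -81 and the Y box at -50 in H2-Aa. The positions were -91 and -61 in H2-Eb1, and -94 and -63 in H2-DMb1, so that the starts of the boxes lay 30 or 31 bases apart in all 3 promoters. Both strands were searched. Alone, the letters of the X box core were found in 42.8% of 32851 promoters of this length and those of the Y box in 7.82%, whereas the pair on the same strand at 30 to 40 bases was found in 38 promoters (0.116%). These letters and this spacing were chosen after the promoters of the members had been read, so that the match is a description. The promoters of H2-DMa and Ptprc did not hold the pair, and H2-Ab1, Cd74 and Ciita were not in the table of promoters used. The E box CACGTG, the core of the CLEAR element through which TFEB is known to bind DNA, was found in 7.15% of all promoters and in 0 of those of H2-Aa, H2-Eb1, H2-DMa and H2-DMb1.

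The 6 arrays correlated at 0.992 to 0.9967 within groups and at 0.9889 to 0.9934 between groups. Tfeb itself read 7.10, 7.23 and 7.04 in TFEB KO and 8.61, 8.55 and 8.96 in WT on the log2 scale, on which a step of 1 is a factor of 2. It was 2.99-fold lower in TFEB KO (log2 fold change -1.58, standard error 0.13, adjusted p = 0.00787 from limma). The place of its 1 probe set relative to the floxed exons was not checked. Transcripts of muscle fibers were near the top of the scale in both groups, and the 10 fiber genes examined had a median log2 fold change of 0.02, with 0 past the test in limma and 0 at an unadjusted p under 0.05. They included the oxygen-binding protein gene Mb (log2 fold change 0.15) and the fast-fiber actinin gene Actn3 (-0.10). Y-linked Eif2s3y and Uty were read above 6 in every array of both groups, with log2 fold changes of 0.43 and 0.24 (adjusted p = 0.198 and 0.227 from limma). Xist, the transcript of the inactive X chromosome, read between 5.26 and 5.78, so that all 6 arrays read as male.

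The classical class II chains and their chaperone Cd74 had higher values in TFEB KO than in WT muscle on every probe set, but none passed the test across all probe sets. H2-Aa, H2-Ab1, H2-Eb1 and Cd74 stood 1.39-fold to 1.70-fold above WT on their brightest probe sets. H2-DMa, a subunit of the peptide editor, and Ciita, the coactivator, had groups that overlapped. In limma with Benjamini-Hochberg adjustment over 22626 probe sets, 0 of the 10 member probe sets were called higher and 0 lower, where 0.751% of all probe sets were called higher and 0.844% lower. At an unadjusted p under 0.05, 6 of the 10 were higher and 0 lower, where 7.81% of all probe sets were higher and 9.4% lower. Another test, the methods' t-test, called 0 of the 10 after the same adjustment, and 1 probe set in the whole table (0.00442%). The paper's methods name this test for its results in general and leave the array analysis to the supplement. The count is therefore not a result of the paper's own array analysis. Among the alternatives it is the test called ordinary. On 7 of the 10, all TFEB KO arrays lay above all WT arrays, which was so for 9.77% of all probe sets, and on 0 they all lay below, which was so for 13.3%. The median log2 fold change of the 10 was 0.48, against -0.02 over all probe sets.

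H2-Aa, the alpha chain of the class II molecule I-A, had the highest fold change of the members. Its brighter probe set (1435290_x_at) read 10.57, 9.91 and 9.93 in TFEB KO, against 9.54, 9.39 and 9.17 in WT. The lowest TFEB KO mouse thus stood above the highest WT mouse, and TFEB KO 1 stood apart from the other TFEB KO mice. The means were 10.14 ± 0.37 in TFEB KO and 9.37 ± 0.19 in WT (SD, n = 3 each), a log2 fold change of 0.77 (limma, standard error 0.19, adjusted p = 0.0862). The other probe set (1452431_s_at) read 8.38, 7.71 and 7.90 in TFEB KO and 7.67, 7.29 and 6.97 in WT, where the lowest TFEB KO array and the highest WT array differed little. Its log2 fold change was 0.68 (limma, standard error 0.21, adjusted p = 0.152).

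H2-Ab1, the beta chain that pairs with H2-Aa, was read by 3 probe sets. The brightest (1450648_s_at) gave 9.80, 9.16 and 9.04 in TFEB KO and 8.94, 8.76 and 8.55 in WT, again without overlap and again with TFEB KO 1 highest. Its log2 fold change was 0.58 (limma, standard error 0.20, adjusted p = 0.185). The next (1451721_a_at) lay between 7.89 and 8.58 in TFEB KO and between 7.22 and 7.78 in WT (log2 fold change 0.60). The dimmest (1425477_x_at) read 8.02, 7.20 and 7.33 in TFEB KO and 7.11, 7.14 and 6.94 in WT (log2 fold change 0.45). The 3 probe sets gave the same order of groups, and on the dimmest one the gap between them came down to a few hundredths of a log2 unit. The suffixes _s_at and _x_at mark probe sets with probes that can also match related transcripts, which for genes of the MHC is a limit on which chain is read.

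H2-Eb1, the beta chain of the other class II molecule of the mouse, I-E, read 9.43, 8.80 and 8.80 in TFEB KO and 8.75, 8.51 and 8.33 in WT. TFEB KO 2 and TFEB KO 3 were close to WT 1 and clear of the other WT mice. The means were 9.01 ± 0.36 in TFEB KO and 8.53 ± 0.21 in WT (SD, n = 3 each), a log2 fold change of 0.48 (limma, standard error 0.19, adjusted p = 0.238). C57BL/6 mice are known to lack I-E, since a deletion removes the promoter of its alpha chain gene H2-Ea. The probe set of H2-Ea, which was not a member, read 6.71, 6.99 and 6.41 in TFEB KO and 7.08, 6.96 and 6.66 in WT. The groups of H2-Ea overlapped, with a log2 fold change of -0.19 (adjusted p = 0.606 from limma). What the probe set reads in a strain without that promoter was not tested.

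Cd74, the invariant chain that fills the peptide groove of new class II molecules and guides them to endosomes, followed the chains. It read 8.89, 8.33 and 8.23 in TFEB KO and 8.13, 8.01 and 7.85 in WT, without overlap. The log2 fold change was 0.49 (limma, standard error 0.17, adjusted p = 0.203). TFEB KO 1 was the highest and WT 3 the lowest array, as for H2-Aa, H2-Ab1 and H2-Eb1.

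**Figure D1:**
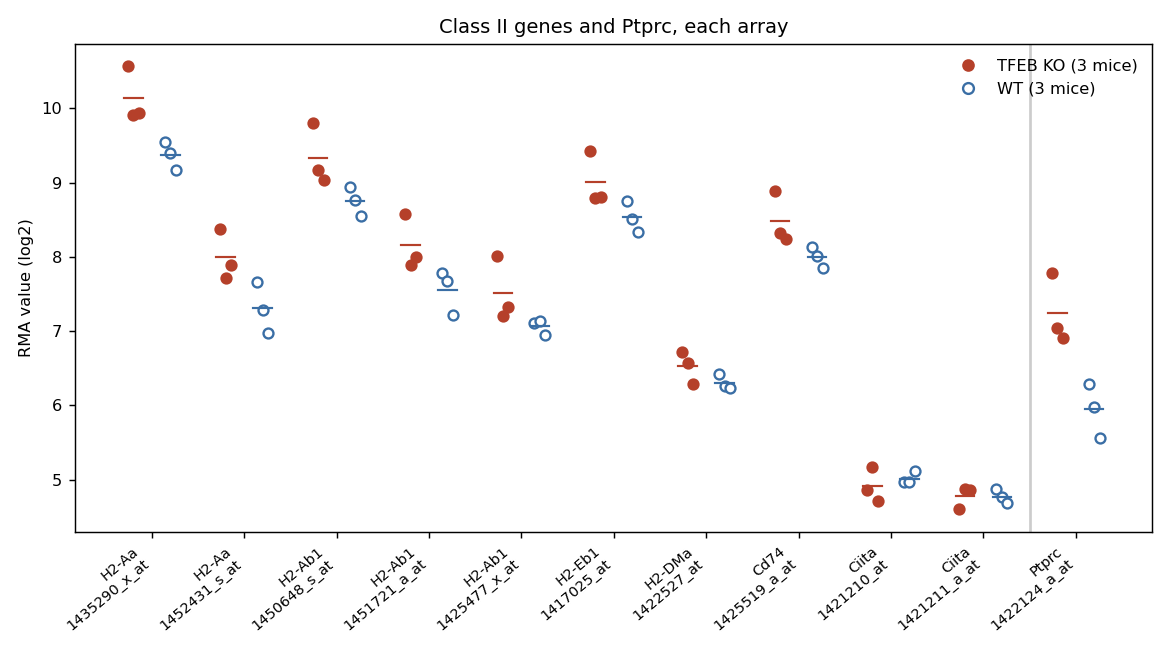
Log2 RMA value (vertical axis) of each probe set of the class II members and, right of the grey line, of Ptprc on every array, with TFEB KO (filled) left of WT (open). Points are arrays, replicates 1 to 3 from left to right in a group, and horizontal lines are group means. On the 7 probe sets of H2-Aa, H2-Ab1, H2-Eb1 and Cd74 all TFEB KO points lie above all WT points, and TFEB KO 1 is the highest.

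The genes of the peptide editor and of the coactivator gave smaller differences. H2-DMa, which with a DM beta chain exchanges the invariant chain fragment for antigen peptides, read 6.72, 6.57 and 6.28 in TFEB KO and 6.43, 6.26 and 6.23 in WT. TFEB KO 3 lay among the WT mice, and the log2 fold change was 0.22 (limma, standard error 0.13, adjusted p = 0.441). The 2 probe sets that name H2-DMb2 and H2-DMb1 together, neither of which counts as a member, had log2 fold changes of 0.37 (adjusted p = 0.179) and 0.24 (adjusted p = 0.579 from limma). The groups did not overlap on the dimmer of these (5.03, 4.67 and 4.72 in TFEB KO, against 4.31, 4.50 and 4.51 in WT).

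Ciita, the coactivator that the promoters of the chains require, read 4.86, 5.17 and 4.71 in TFEB KO and 4.96, 4.97 and 5.11 in WT on 1 probe set. On the other it lay between 4.60 and 4.87 in TFEB KO and between 4.68 and 4.87 in WT. The groups overlapped on both, the log2 fold changes were -0.10 and 0.00 (adjusted p = 0.745 and 0.994 from limma), and both probe sets had a mean below 6, the level under which a probe set is called dim here. A change in Ciita could be missed on probe sets this dim. The level of 6 does not mark detection, since H2-Ea, whose promoter this strain is known to lack, read above it in every array.

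Among 12393 genes taken on their brightest probe set, H2-Aa ranked 117 by log2 fold change, H2-Ab1 239, Cd74 360, H2-Eb1 374, H2-DMa 1612 and Ciita 8739. The size of the differences rested in part on TFEB KO 1. This array was the highest in 8 of the 10 member probe sets and WT 3 the lowest in 8, while over all probe sets they were so in 17.2% and 16.5%. Without TFEB KO 1 the log2 fold changes were 0.55 for H2-Aa, 0.35 for H2-Ab1, 0.28 for Cd74, 0.27 for H2-Eb1 and 0.12 for H2-DMa. The other TFEB KO mice then lay above all WT mice on 7 of the 10 probe sets, where 16.1% of all probe sets did, and 4 were higher at an unadjusted p under 0.05, where 8.19% were. Without WT 3 the groups were apart on 7 (15.9% of all probe sets) and 2 were higher at an unadjusted p under 0.05 (7.34%), and 0 passed after adjustment without any single array.

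The general leukocyte gene Ptprc, which encodes the phosphatase CD45 on nucleated blood-derived cells, rose, with a larger log2 fold change than each class II gene. Its 1 probe set read 7.78, 7.04 and 6.90 in TFEB KO and 6.29, 5.98 and 5.56 in WT, so that every TFEB KO mouse was above every WT mouse. The means were 7.24 ± 0.47 in TFEB KO and 5.95 ± 0.37 in WT (SD, n = 3 each), a log2 fold change of 1.29 (limma, standard error 0.25, adjusted p = 0.0488), or 2.45-fold. This call was close to the threshold and was lost without any one of the 6 arrays (adjusted p = 0.0516 to 0.151, log2 fold change 1.03 to 1.47). Ptprc ranked 29 among the genes by log2 fold change.

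Each member was then set against Ptprc within the same array, as the log2 value of the member minus that of Ptprc. Only the difference of this quantity between groups has a meaning, since the levels of different probe sets cannot be compared. For H2-Aa it was 2.79, 2.87 and 3.03 in TFEB KO and 3.25, 3.41 and 3.60 in WT, a difference of -0.53 (p = 0.10 in a two-sided exact permutation test, which 3 arrays against 3 cannot go below). Relative to Ptprc, H2-Aa thus stood at 0.695 times its WT ratio. For H2-Ab1 it was 2.02, 2.13 and 2.14 in TFEB KO and 2.65, 2.78 and 2.99 in WT, a difference of -0.71. In these ratios of H2-Aa and H2-Ab1, TFEB KO 1 was the lowest TFEB KO array. The same was so for H2-Eb1, Cd74, H2-DMa and Ciita on their brightest probe sets.

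For H2-Eb1 the quantity was 1.65, 1.76 and 1.90 in TFEB KO and 2.46, 2.53 and 2.77 in WT, a difference of -0.81. For Cd74 it was 1.11, 1.29 and 1.33 in TFEB KO and 1.84, 2.03 and 2.29 in WT, a difference of -0.81 as well. H2-DMa (-1.08) and the probe sets of Ciita (-1.40 and -1.29) had the lowest differences. Ciita was dim and close to level between the groups, so that its differences mostly carry the rise of Ptprc. All TFEB KO arrays lay below all WT arrays on 10 of 10 probe sets (exact p = 0.10 for each), and the median difference was -0.81.

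These ratios carry the rise of Ptprc itself, and the background shows how far: 94.7% of all probe sets had every TFEB KO array below every WT array relative to Ptprc. In limma on the ratios 6 of the 10 member probe sets were called lower, where 98% of all probe sets were, and the methods' t-test called 10, where 78% were. The same Ptprc values enter every ratio, so that the ratios are not independent, and limma gave each the same pooled standard error of 0.37. The member counts are therefore not a result about the members, and the measurement they rest on is that the class II genes had a smaller log2 fold change than Ptprc.

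The gap depended on which leukocyte gene was taken. A list of 12 general leukocyte genes, Ptprc among them, had 4 genes with a mean below 6. The list of 20 macrophage and monocyte genes also had 4. Against the mean of 12 general leukocyte genes, the difference was -0.01 for H2-Aa, with groups that overlapped (exact permutation test, two-sided, p = 0.9). It was -0.19 for H2-Ab1, -0.30 for H2-Eb1 and -0.29 for Cd74, each with TFEB KO below WT in all arrays (exact p = 0.10), which was so for 82.3% of all probe sets. Of the 12 leukocyte genes, 7 had a larger log2 fold change than H2-Aa and 8 a larger one than H2-Ab1, H2-Eb1 and Cd74. Against the mean of 20 macrophage and monocyte genes the differences were -0.19 for H2-Aa, -0.37 for H2-Ab1, -0.47 for Cd74 and -0.48 for H2-Eb1, with no overlap (exact p = 0.10 for each), where 90.6% of all probe sets lay below WT in the same way. H2-DMa was at -0.56 against the leukocyte genes and at -0.74 against the macrophage genes.

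**Figure D2:**
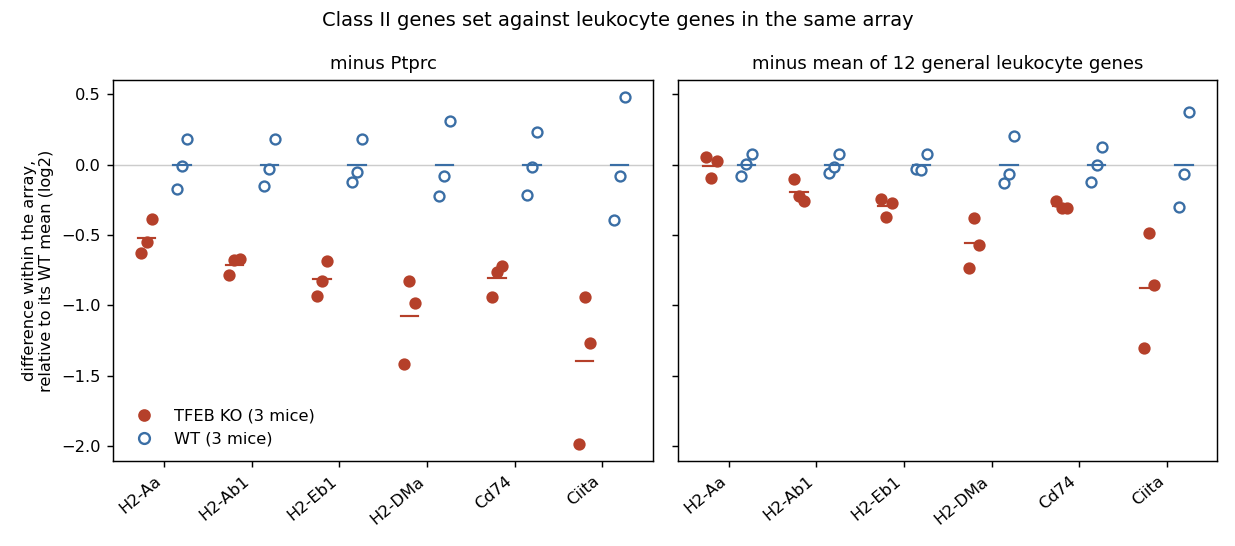
Log2 value of the brightest probe set of each class II gene minus that of Ptprc (left panel) or minus the mean of 12 general leukocyte genes (right panel) in the same array, drawn relative to its WT mean (vertical axis), with TFEB KO (filled) left of WT (open). Points are arrays and horizontal lines are group means. All TFEB KO points lie below all WT points on the left, as for 94.7% of all probe sets, while on the right the groups of H2-Aa overlap (difference -0.01).

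The other genes that serve class II presentation were examined as groups. Among 7 genes of peptide processing and turnover, 1 rose and 0 fell in limma, with a median log2 fold change of 0.19, where 0.871% of all genes rose and 0.702% fell. The gene that rose was Ctss, the protease cathepsin S, which trims the invariant chain from class II. It read 10.09, 9.54 and 9.82 in TFEB KO and 8.10, 7.94 and 7.20 in WT, a gap of more than 1 log2 unit between the closest mice of the groups. Its log2 fold change was 2.07 (limma, standard error 0.24, adjusted p = 0.0142), or 4.21-fold, and it passed without any single array. Lgmn, the asparaginyl endopeptidase of endosomes, had a log2 fold change of 0.51 (adjusted p = 0.114) and Ifi30, a thiol reductase, one of 0.23 (adjusted p = 0.458 from limma). The other cathepsins lay nearer 0, with 0.19 for Ctsb, 0.12 for Ctsl and 0.10 for Ctsd.

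The 10 transcription factors and cofactors of class II promoters had 0 genes called in limma, 1 gene lower at an unadjusted p under 0.05 and a median log2 fold change of 0.00. That gene was Nfyb, a subunit of the NF-Y complex that binds the Y box, at 7.80, 8.07 and 8.09 in TFEB KO and 8.22, 8.42 and 8.69 in WT (log2 fold change -0.46, adjusted p = 0.146 from limma). The RFX subunits, which bind the X box, were close to level in both groups, with log2 fold changes of 0.05 for Rfx5, 0.10 for Rfxank and -0.17 for Rfxap. Creb1, whose product also binds class II promoters, had 0.19 on its brightest probe set, but the mean of all its probe sets had the opposite sign (-0.05).

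Of 3 further class II genes, H2-Ea, H2-DMb2 and H2-Oa, 0 were called in limma and 0 reached an unadjusted p under 0.05. H2-DMb2, another DM beta chain, had a log2 fold change of 0.25 (adjusted p = 0.39 from limma), and H2-Oa, a chain of the DM inhibitor DO, had 0.10. Among 8 costimulatory genes 1 rose and 7 had a mean below 6, all but Icosl (log2 fold change -0.06). The 1 that rose was Cd83, itself dim, a surface marker of activated dendritic cells whose product is known to stabilize class II at the surface. It read 5.82, 5.61 and 5.55 in TFEB KO and 5.19, 5.10 and 5.14 in WT (log2 fold change 0.52, adjusted p = 0.049 from limma). That call lay at the threshold and was lost without any one of the arrays (adjusted p = 0.0682 to 0.162).

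**Figure D3:**
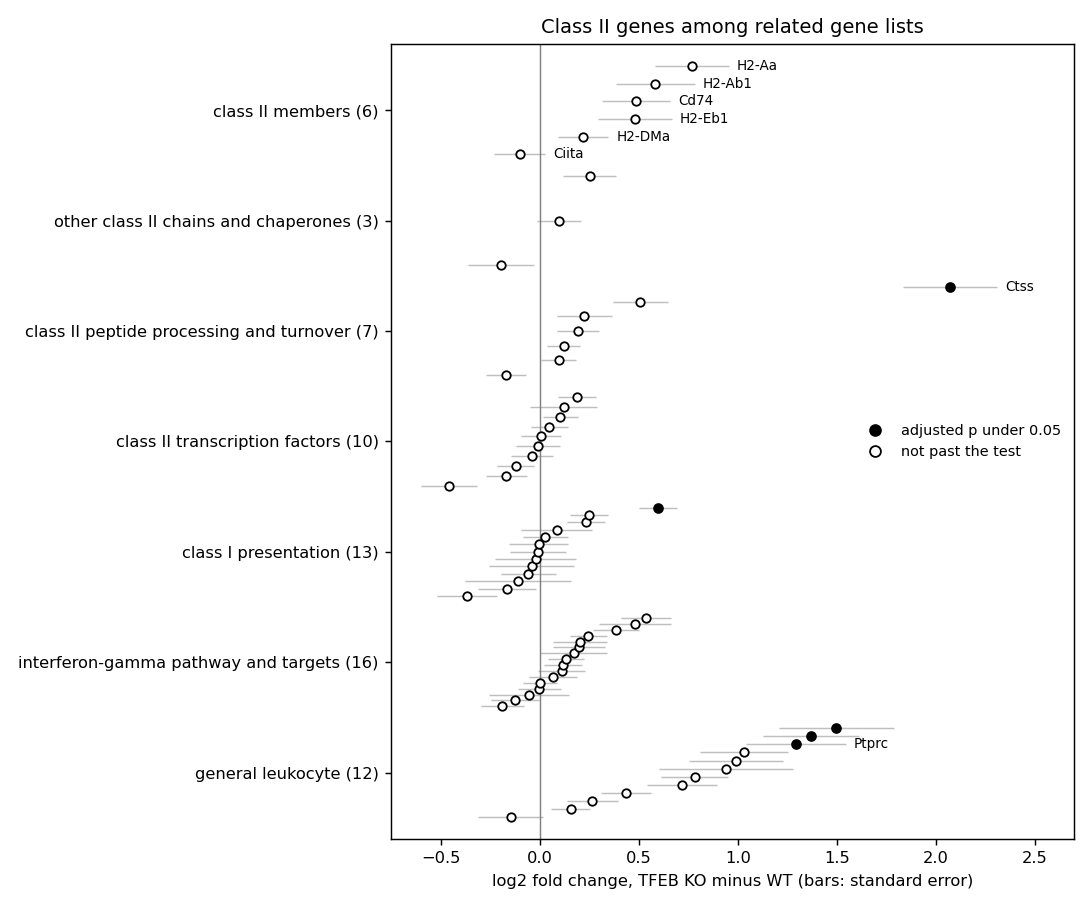
Log2 fold change, TFEB KO minus WT (horizontal axis, bars are standard errors from limma), of each gene on its brightest probe set, by list, with the number of genes in each list in brackets. Filled points have an adjusted p under 0.05. The class II chains and Cd74 lie between 0.48 and 0.77, to the left of Ptprc at 1.29 and of Ctss at 2.07.

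Class I genes, which serve the display of cytosolic peptides on nearly all cells, were examined beside class II. Of 13 measured, 1 rose in limma, 0 fell, and the median log2 fold change was -0.01. H2-K1 (-0.02), H2-D1 (-0.04) and B2m (0.09) were near 0 over all arrays, with TFEB KO 1 the highest array for each. For H2-K1 and H2-D1, TFEB KO 2 and TFEB KO 3 lay below all WT mice. The log2 fold changes without TFEB KO 1 were -0.28 for H2-K1, -0.32 for H2-D1 and -0.11 for B2m. The 1 that rose was Erap1, which trims peptides for class I in the endoplasmic reticulum (log2 fold change 0.60, adjusted p = 0.0306 from limma), and its call was lost without any one of the arrays but TFEB KO 1 (adjusted p = 0.0669 to 0.133). TFEB KO 1 was the highest array for 9 of the 13 class I genes, as it was for the class II chains.

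Interferon-gamma is the cytokine known to induce Ciita and with it class II. Of 16 measured genes of its pathway and targets, 0 were called in limma and the median log2 fold change was 0.13. At an unadjusted p under 0.05, 4 were higher, where 1052 of all 12393 genes were. Of the 16, 5 had a mean below 6, Cxcl10 and Ifng included. The chemokine gene Cxcl10 had a log2 fold change of 0.54 (adjusted p = 0.0846) and the GTPase gene Gbp2 one of 0.38 (adjusted p = 0.149 from limma). Irf1, an early target, had 0.00. Ifng itself read between 3.49 and 3.63 in all 6 arrays, so dim that a change in it could not be judged.

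Markers of the cells that carry class II moved with these values to different extents. Of the 12 general leukocyte genes 3 rose in limma, the tetraspanin gene Cd53 (2.82-fold), the actin bundler gene Lcp1 (2.58-fold) and Ptprc, and the list had a median log2 fold change of 0.86, where all genes had a median of -0.01. The call of Cd53 was lost without any one of the arrays (adjusted p = 0.0512 to 0.155) and that of Lcp1 without any one but TFEB KO 1 (0.0722 to 0.123). Of 20 macrophage and monocyte genes 9 rose and 0 fell, with a median of 1.02. They included the pore protein Mpeg1 (1.75), the lysozymes Lyz2 (1.45) and Lyz1 (1.41) and the signaling adaptor Tyrobp (1.33), and Mpeg1 lost its call without TFEB KO 2, WT 2 or WT 3 (adjusted p = 0.0538 to 0.0664) and Lyz2 without any one array (0.0597 to 0.137). Lyz1 and Tyrobp lost theirs without any one array but TFEB KO 1 (0.0533 to 0.102). As a mean over the list relative to WT, the macrophage genes stood at 1.33, 0.78 and 0.77 in TFEB KO and at 0.28, 0.04 and -0.32 in WT. TFEB KO 1 was the highest array for 17 of these 20 genes and WT 3 the lowest for 18, as they were for the class II chains. The part of these cells in the class II values was not tested.

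Most markers of dendritic cells and B cells, which also carry class II, were dim, as were most markers of T cells. Of 11 dendritic cell genes 0 were called in limma, 3 were higher at an unadjusted p under 0.05, and the median log2 fold change was 0.12. The log2 fold change was above 0 for 6 of the 11, and 8 had a mean below 6, among them Flt3, Xcr1, Batf3 and Itgax. The 2 with the smallest p were the lectin genes Clec10a (log2 fold change 0.69, adjusted p = 0.15) and Cd209a (0.53, adjusted p = 0.139 from limma), which macrophages can also express. Itgax, also higher at an unadjusted p under 0.05, had 0.43 (adjusted p = 0.188 from limma). Zbtb46, with a mean above 6, had 0.20 (adjusted p = 0.337 from limma), and all its TFEB KO arrays lay above all WT arrays. Of 9 B cell genes 0 were called in limma and 0 reached an unadjusted p under 0.05. The median was 0.09 and 7 had a mean below 6, the B cell receptor genes Cd79a and Cd79b and the surface marker Ms4a1 included. The immunoglobulin gene Ighm was bright, at 11.19, 9.60 and 9.67 in TFEB KO and 9.91, 10.81 and 9.97 in WT, with groups that overlapped. Of 10 T cell genes 0 were called in limma, 0 reached an unadjusted p under 0.05, and 8 had a mean below 6, with log2 fold changes of 0.27 for Cd5 and -0.24 for Cd8b1.

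**Figure D4:**
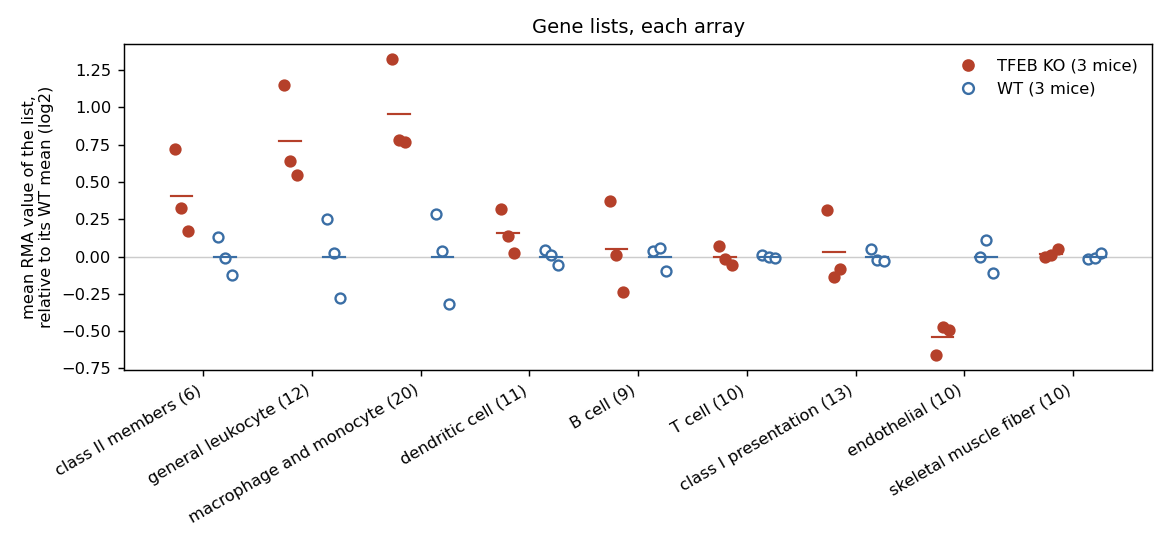
Mean log2 value of each gene list relative to its WT mean (vertical axis), with TFEB KO (filled) left of WT (open) and the number of genes in brackets. Points are arrays, replicates 1 to 3 from left to right in a group, and horizontal lines are group means. The macrophage and monocyte genes and the general leukocyte genes lie higher in every TFEB KO array than in any WT array, with TFEB KO 1 highest.

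Of 10 endothelial genes 0 rose and 5 fell in limma, with a median log2 fold change of -0.57, led by the receptor gene Kdr (-0.89), Vwf (-0.86), Pecam1 (-0.82) and Flt1 (-0.57). The call of Vwf was lost without TFEB KO 2, WT 1 or WT 2 (adjusted p = 0.055 to 0.0576), that of Kdr without TFEB KO 2, TFEB KO 3, WT 1 or WT 2 (0.074 to 0.12), that of Pecam1 without any one array but TFEB KO 3 (0.0757 to 0.179) and that of Flt1 without any one array (0.0583 to 0.161). Of 8 fibroblast genes 0 were called in limma, and 3 were higher and 2 lower at an unadjusted p under 0.05. The 2 of smallest p were the collagen gene Col1a2 (log2 fold change -0.74, adjusted p = 0.143) and the matrix gene Dpt (0.77, adjusted p = 0.155 from limma), and Col1a2 passed without TFEB KO 1 (-1.02, adjusted p = 0.0157). The list mean stood at 0.63 in TFEB KO 1 against -0.21 in both TFEB KO 2 and TFEB KO 3. Of 7 neutrophil genes 0 were called in limma, and all 7 had a mean below 6. At an unadjusted p under 0.05, 2 were higher, the calprotectin genes S100a8 (log2 fold change 1.29, adjusted p = 0.0793) and S100a9 (1.21, adjusted p = 0.107). Both passed the test without TFEB KO 1 (adjusted p = 0.00918 and 0.0279 from limma), the array in which the class II chains were highest. The other neutrophil genes had log2 fold changes from -0.18 for Camp to 0.24 for Mmp9, with 0.00 for Ngp and 0.01 for Ltf.

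Genes whose values followed the class II profile across the 6 arrays were ranked by Pearson's r with the mean deviation of H2-Aa, H2-Ab1, H2-Eb1, H2-DMa and Cd74, over 7678 genes with a mean of at least 6. The arrays share their groups and the high TFEB KO 1, so that r is a description only, and 245 genes reached 0.9. The 8 most alike were the elongation factor gene Eef1a1 (r = 0.9976), the extracellular matrix gene Dpt (0.9967), Atp5md (0.9932), the glucocorticoid-activating enzyme gene Hsd11b1 (0.9883), the macrophage gene Ms4a7 (0.988), Renbp (0.987), the kinase gene Prkci (0.9863) and the stromal gene Pdpn (0.9862). None of the 8 passed the test in limma, the log2 fold changes ran from 0.11 for Atp5md to 1.02 for Ms4a7 (adjusted p = 0.604 and 0.0854), and Ptprc ranked 45 with r = 0.9698.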

How the data were processed

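Expression was measured in muscle of 3 TFEB KO and 3 WT mice, 1 Affymetrix array each, and the labels call them biological replicates. The authors made the deposited log2 values from the scans with RMA (background correction, quantile normalization and a summary per probe set) through the R package affy; their versions were not given in the sources read for this work. The number of arrays limits the precision.

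The table holds 22690 probe sets. After removal of 64 Affymetrix controls, 22626 were tested; 20380 name 1 gene, 691 several and 1555 none, and 20351 were found in RefSeq by Entrez ID, which changed 0 symbols. TFEB KO and WT were compared in R 4.3.3 by limma 3.58.1 (lmFit, eBayes, two-sided) with Benjamini-Hochberg adjustment over all probe sets and a threshold of 0.05, and within-array differences to Ptprc with limma and the exact permutation test. The fit was tested on simulated data. Lists used the brightest probe set of a gene. The text names all members, Ptprc, Tfeb, for each list its called genes, at most 4 (where 0 are called, the 2 genes of smallest p), and the 8 genes most like the class II profile; any other gene was chosen with its values in view. The members, lists and rules were chosen with earlier results of these data known. Alternatives were a shift of arrays to the same 75th percentile, a second quantile normalization, a filter at a log2 level of 6, other moderation and array weights. Further ones were an ordinary t-test, a replicate block, at least 1.5-fold, controls kept, probe sets averaged, list means in place of Ptprc and each array left out. Promoters and figures were handled with matplotlib 3.10.9, NumPy 2.4.6, pandas 2.3.3 and Python 3.11.15.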

Additional observations from a re-analysis of the deposited data

How the results depend on the processing

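The 0 of 10 class II probe sets past the test stayed 0 under each alternative run but the replicate block, under which 1 passed (H2-Aa, adjusted p = 0.0441, range 0.0441 to 0.3 over its alternatives; 297 probe sets called in all). Replicate numbers are shared between the groups. Over all probe sets, same-numbered arrays deviated together only weakly (correlations of 0.0876, 0.0477 and 0.265). The main test did not take the numbers as pairs, a choice that these correlations do not settle. The class II profile, however, fell from replicate 1 to replicate 3 in both groups (0.64, 0.11 and 0.01 in TFEB KO, -0.09, -0.26 and -0.42 in WT). Ptprc had an adjusted p of 0.0149 in limma with the replicate block. Whether the numbers mark pairs was not tested. The median log2 fold change of the class II probe sets lay between 0.28 and 0.60 with an array left out and between 0.40 and 0.53 otherwise. The rise of Ptprc lost its call with the same 75th percentile (1.29, adjusted p = 0.0543), with the ordinary t-test (adjusted p = 0.263) and with an array left out (1.03 to 1.47). The count lower relative to Ptprc, 6, was 10 with array weights, the replicate block or the ordinary t-test. It was 3 to 8 with an array left out (3 without TFEB KO 2, WT 2 or WT 3). It was 2 against the leukocyte list mean and 3 against the macrophage list mean. Of all probe sets, 99.6%, 99.4%, 78%, 90.9% to 98.6%, 86.6% and 94.9% were lower in these settings, in the same order. Against these means the median difference, -0.81 against Ptprc, was -0.29 and -0.47. Ptprc has 1 probe set, so averaging its probe sets changed nothing. Calls of single genes named in the text were lost with the replicate block for Cd83 (adjusted p = 0.06), Erap1 (0.056), Flt1 (0.0559) and Pecam1 (0.0744), with the same 75th percentile for Cd83 (0.07) and Cd53 (0.0507), with trended and robust moderation for Cd83 (0.0556), Cd53 (0.0581) and Lyz2 (0.0577), with probe sets averaged for Flt1 (0.0672) and with at least 1.5-fold for Cd83 and Flt1. The ordinary t-test kept none of the calls of genes named in the text, Tfeb included (adjusted p = 0.132). Calls were gained with the replicate block for Ms4a7 (0.0364) and with array weights for S100a8 (0.0414). The sign turned for Cd79b without TFEB KO 1 (-0.087) or WT 3 (-0.010; -0.09 to 0.44 over arrays left out), for Ms4a1 without TFEB KO 1 (-0.034; highest 0.25), for Ciita without TFEB KO 3 (0.0013; lowest -0.23) and for Creb1 with probe sets averaged (-0.049); none of these passed the test in any setting, and the cause was not tested. With 3 arrays a group the precision is limited.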
